A study of Homo sapiens with 2 samples.

Results

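PGK1, SLC2A1, KDM3A and P4HA2 are genes of glucose use and of the response to low oxygen. They were followed in HepG2 cells, a human hepatoma line, on 1 array of cells that received a locked nucleic acid (LNA, a chemically stabilised antisense strand) directed at TUC338 and 1 array of cells that received a control LNA. TUC338 is a noncoding RNA transcribed through an ultraconserved element. The cells grew on collagen-coated plates, and the labels name no low-oxygen or glucose treatment. The members were all probe sets annotated to 1 of these 4 gene symbols and to no other gene, which gave 64 of the 45200 probe sets in the table: 11 for PGK1, 11 for SLC2A1, 27 for KDM3A and 15 for P4HA2. KDM3A was listed under its older symbol JMJD1A. They are 4 of the 2792 genes with a probe set of their own. The table does not cover the genome: of 26 listed glycolytic enzymes, 4 had at least 4 probe sets of their own. The median gene and all ranks and shares below refer to the genes of this table alone. A probe set of this exon array covers roughly an exon, so the probe sets of a gene are repeated readings of the same RNA and not replicates of a condition. Each condition has 1 array, so no test could be made and each difference below is between 2 arrays.

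Cells that break down glucose to pyruvate import it through facilitative transporters and pass it along the glycolytic enzymes, and hepatoma cells are known for high glycolysis and for SLC2A1, which adult hepatocytes hold at low levels. When oxygen falls, prolyl hydroxylases of the EGLN family no longer mark the hypoxia-inducible factor (HIF) alpha subunits for destruction, and HIF alpha pairs with ARNT and binds short DNA elements with the core ACGTG, or a G-for-A form of it, near its target genes. PGK1 encodes phosphoglycerate kinase, which makes the first ATP of glycolysis. SLC2A1 encodes the glucose transporter GLUT1. KDM3A encodes a histone demethylase that removes methyl groups from lysine 9 of histone H3, and P4HA2 encodes a catalytic subunit of the collagen prolyl hydroxylase. All 4 are known HIF targets, and KDM3A and P4HA2 are themselves oxygen-dependent enzymes.

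The sequences around the start sites of the genes are shown because HIF binding at such elements is what the 4 genes are known to share. Each runs 5′ to 3′ on the strand of the gene, from 250 bases before to 50 after the start in RefSeq on GRCh38.p14, with ACGTG and the variant GCGTG in capitals on either strand (read from the other strand these appear as CACGT and as the variant CACGC). All 4 genes matched the promoter table by symbol. The windows are chrX:78103998-78104297 on the plus strand for PGK1, chr1:42958819-42959118 on the minus strand for SLC2A1, chr2:86441121-86441420 on the plus strand for KDM3A and chr5:132227042-132227341 on the minus strand for P4HA2.
PGK1: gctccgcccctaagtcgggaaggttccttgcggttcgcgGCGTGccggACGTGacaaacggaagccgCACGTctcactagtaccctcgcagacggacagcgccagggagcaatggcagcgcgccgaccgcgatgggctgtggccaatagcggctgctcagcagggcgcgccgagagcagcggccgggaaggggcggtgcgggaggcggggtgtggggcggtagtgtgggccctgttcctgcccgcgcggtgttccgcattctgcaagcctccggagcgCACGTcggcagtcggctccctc
SLC2A1: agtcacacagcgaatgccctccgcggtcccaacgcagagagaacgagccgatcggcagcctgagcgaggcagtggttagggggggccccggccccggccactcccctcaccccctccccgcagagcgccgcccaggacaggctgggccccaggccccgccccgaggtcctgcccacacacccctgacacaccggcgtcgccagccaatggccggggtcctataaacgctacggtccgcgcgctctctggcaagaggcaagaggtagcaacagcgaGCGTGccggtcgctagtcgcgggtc
KDM3A: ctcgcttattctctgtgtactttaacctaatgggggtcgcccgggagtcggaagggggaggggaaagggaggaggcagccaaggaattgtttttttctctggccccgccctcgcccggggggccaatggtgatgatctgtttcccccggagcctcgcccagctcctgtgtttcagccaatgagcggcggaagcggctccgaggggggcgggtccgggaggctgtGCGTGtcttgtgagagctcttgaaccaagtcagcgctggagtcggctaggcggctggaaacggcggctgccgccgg
P4HA2: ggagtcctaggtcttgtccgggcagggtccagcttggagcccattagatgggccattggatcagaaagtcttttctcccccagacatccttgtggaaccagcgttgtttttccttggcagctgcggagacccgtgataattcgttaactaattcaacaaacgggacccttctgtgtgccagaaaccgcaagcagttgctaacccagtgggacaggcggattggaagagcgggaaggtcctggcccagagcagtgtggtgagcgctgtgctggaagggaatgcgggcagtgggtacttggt
The PGK1 window held 3 matches to ACGTG on either strand, which begin at bases 49, 68 and 279 counted from 1 at its 5′ end, and 1 match to GCGTG at base 40. None of these matches overlapped another. The windows of SLC2A1 and KDM3A held no match to ACGTG and 1 match to GCGTG each, at base 276 and base 225. A second KDM3A window, which starts 3′ of the first and overlaps it, holds the same match. The P4HA2 window held neither motif. Of 35116 windows in the promoter table, 21.4% held ACGTG and 36.5% held GCGTG on either strand, so windows with at least 1 match were common. The share of windows with as many matches as that of PGK1 was not counted. A match describes letters in a window, and elements outside it were not searched.

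The arrays as a whole differed in brightness, which sets how the members are read. The knockdown array had a median intensity of 507 over all probe sets, against 422 for the control array, and the median gene was 0.28 higher (log2, mean over its probe sets) on the knockdown array, or 1.22-fold. Differences are knockdown minus control in log2 intensity. They are given as deposited or, where said, relative to the median gene, that is after subtraction of this offset. No probe set was annotated to TUC338, whose knockdown the submitters state they had verified separately. PCBP2, within which the RefSeq table places TUC338, had a mean log2 intensity of 10.10 in the knockdown and 10.71 in the control over 13 probe sets. Of 12 hepatoma and hepatocyte markers, 5 had at least 4 probe sets of their own: GPC3, ALB, APOB, APOH and FGG. They had mean log2 intensities of 10.53 to 12.66 in the knockdown and 9.98 to 12.41 in the control, above the median gene level of 8.82. AFP and HNF4A were not analysed here, nor were any of 5 leukocyte and 5 endothelial markers.

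Lower values on the knockdown array were found for PGK1, SLC2A1 and, by less, KDM3A, while the direction of P4HA2 depended on the offset. Relative to the median gene, PGK1 lay at a mean of -0.88 ± 0.39 (log2, SD over 11 probe sets), or 1.84-fold lower. SLC2A1 lay at -0.50 ± 0.18 over 11 probe sets, or 1.42-fold lower. The arrays read RNA of whole cultures, in which fewer expressing cells and less RNA per cell cannot be told apart. KDM3A lay at -0.35 ± 0.31 over 27 probe sets and P4HA2 at -0.14 ± 0.25 over 15. Genes were counted as lower or higher when their mean was at least 1.5-fold from the median gene. PGK1 was the only member past that fold, 1 of 4, where 3.57% of 2742 genes with at least 4 probe sets were that much lower. Among these genes PGK1 ranked 22nd from the lowest, SLC2A1 155th, KDM3A 343rd and P4HA2 783rd. The gap between neighbours in this order was 0.37 for PGK1 and SLC2A1, 0.15 for SLC2A1 and KDM3A and 0.21 for KDM3A and P4HA2. Each gap was below the larger SD of its pair. That SD describes how far the probe sets of a gene differ between the same arrays. It is no error of a gene mean, so it cannot show whether the genes differ from each other.

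**Figure D1:**
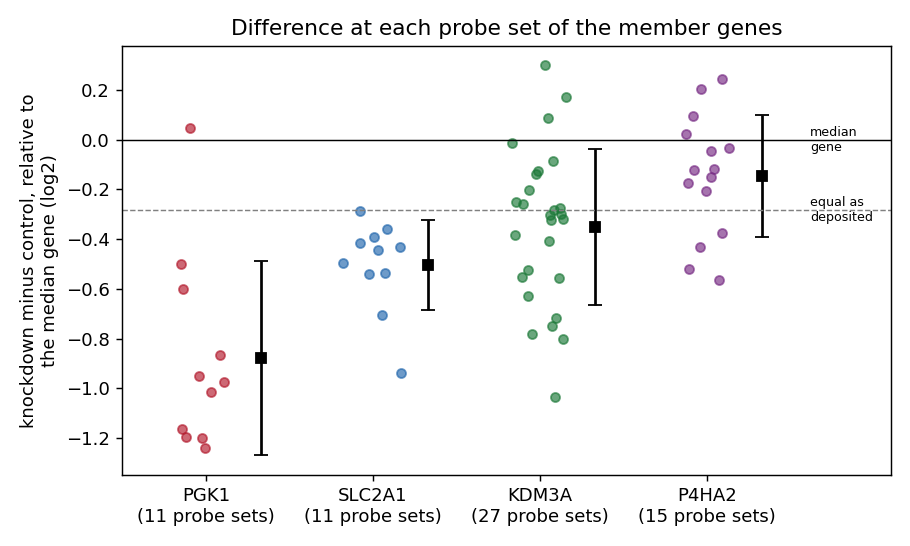
Knockdown minus control at each probe set, relative to the median gene (log2), for PGK1, SLC2A1, KDM3A and P4HA2. Points are probe sets, black squares are means and bars are 1 SD over probe sets. The solid line is the median gene and the dashed line marks equal deposited values, at -0.28. All 11 SLC2A1 points lie below the dashed line, as do 10 of 11 for PGK1, 16 of 27 for KDM3A and 4 of 15 for P4HA2.

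Pooled over the 4 genes, the 64 probe sets lay below the median gene in 56 cases, or 87.5%, where 52.1% of 42575 single-gene probe sets did. Of all gene means 16.6% were below 0 as deposited, as were the means of PGK1, SLC2A1 and KDM3A. As deposited, 41 of 64 were lower on the knockdown array, or 64.1%, where 24.8% of single-gene probe sets were. The 64 readings come from 4 genes on the same pair of arrays, so they are not 64 separate observations. The 4 genes were also chosen with earlier results of these data known, so these shares are no independent test.

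PGK1 catalyses the step that follows glyceraldehyde-3-phosphate dehydrogenase. Its mean log2 level came to 9.47 in the knockdown and 10.06 in the control, and the deposited mean was 66.3% of the control level, and 54.4% after removal of the offset. At the brightest probe set, 3982488, the log2 reading stood at 12.23 in the knockdown and 12.81 in the control. The lower value was thus seen where the PGK1 signal was strongest. In intensity units this probe set read 4793 in the knockdown and 7177 in the control. Probe set 3982476 read 2001 in the knockdown and 3326 in the control, and probe set 3982486 read 1699 in the knockdown and 3192 in the control. These 3 brightest readings stood at 53.2% to 66.8% of control. The next brightest, 3982489, differed less, with 1688 in the knockdown and 2101 in the control, or 80.4% of control.

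The largest PGK1 differences came from probe sets of moderate to high brightness. Probe set 3982484 was lowest, with a log2 intensity of 8.38 in the knockdown and 9.34 in the control, or -1.24 relative to the median gene. Probe sets 3982483, 3982486 and 3982477 followed at -1.20, -1.19 and -1.16. A difference of at least 2-fold was found at 5 of the 11 probe sets and one of at least 1.5-fold at 9, where 1.13% and 8.19% of all single-gene probe sets were that much lower. The remaining pair was the dimmest. Probe set 3982471 had a log2 intensity of 7.13 in the knockdown and 7.34 in the control, and probe set 3982472 had 7.54 in the knockdown and 7.21 in the control. Probe set 3982472 was the only PGK1 reading above the median gene, by 0.05. PGK1 has processed pseudogenes of similar sequence, and whether any probe set also reads them was not analysed here.

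SLC2A1, the entry point for glucose, gave the most even readings of the 4 genes. Its mean log2 level came to 12.34 in the knockdown and 12.56 in the control, and the deposited mean was 85.8% of control. All 11 probe sets were lower on the knockdown array as deposited, from -0.66 at probe set 2409139 to -0.0040 at probe set 2409130. Of 2141 genes with at least 8 probe sets, 1.17% had every probe set lower as deposited, and 6.68% had all of them under the median gene. The brightest SLC2A1 probe set, 2409130, read 10282 in the knockdown and 10310 in the control, which is nearly equal. The dimmest, 2409139, read 2064 in the knockdown and 3252 in the control, or 63.4% of control. The next dimmest, 2409127, read 2606 in the knockdown and 3487 in the control. The size of the SLC2A1 difference thus varied with brightness. The dimmest pair, 2 of 11 probe sets, lay at least 1.5-fold under the median gene, where 8.19% of all single-gene probe sets did.

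**Figure D2:**
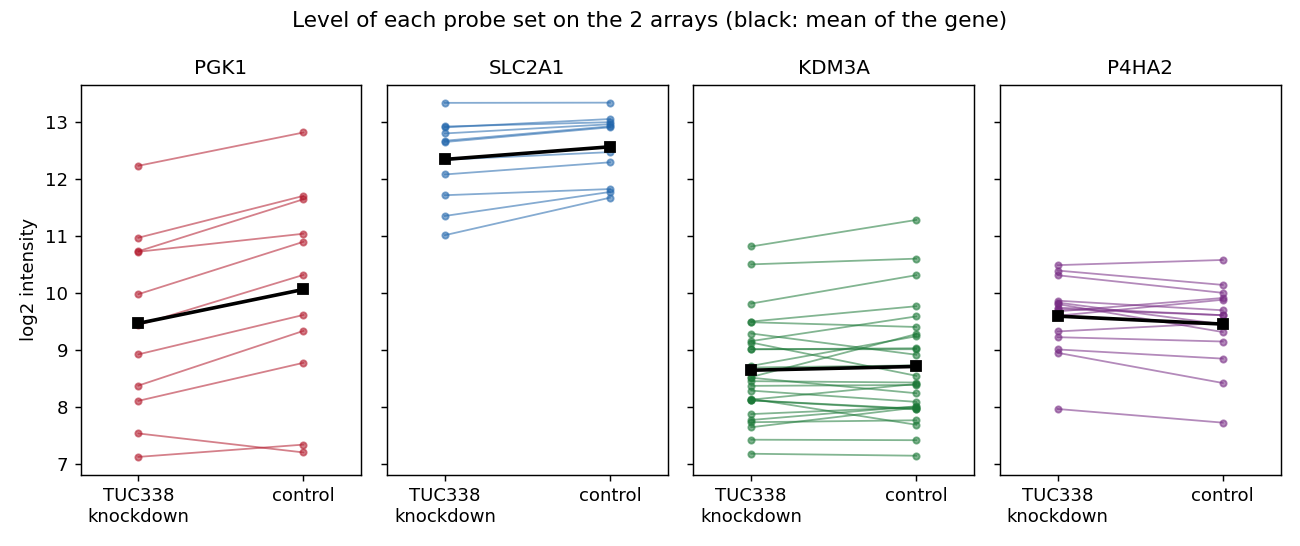
Log2 intensity of each probe set on the knockdown array (left of each panel) and the control array (right), joined by a line, with the mean of the gene in black. The PGK1 mean is 9.47 in the knockdown and 10.06 in the control, the SLC2A1 mean 12.34 in the knockdown and 12.56 in the control, and the P4HA2 mean 9.59 in the knockdown and 9.45 in the control. Heights of different probe sets are not comparable as amounts of RNA.

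KDM3A, a demethylase that needs oxygen, was mixed across its 27 probe sets. Its mean log2 level came to 8.65 in the knockdown and 8.71 in the control, with a deposited mean of 95.5% of control. As deposited 16 probe sets were lower and 11 higher, and relative to the median gene 24 were below and 3 above. Probe set 2492128 was lowest, with a log2 intensity of 8.53 in the knockdown and 9.28 in the control, or -1.04 relative to the median gene. Its numbered neighbour, 2492129, lay at -0.80. All 3 of the brightest KDM3A readings lay below the median gene. The brightest, 2492095, had 10.81 in the knockdown and 11.28 in the control, or -0.75 relative to the median gene. The next, 2492099, lay at -0.38, close to the gene mean, and 2492097 at -0.78. At the other end probe set 2492083 had 9.13 in the knockdown and 8.55 in the control, 0.30 above the median gene. In all, 6 of 27 were at least 1.5-fold lower, where 8.19% of all single-gene probe sets were, and none was 1.5-fold higher. With probe sets at or above the median intensity alone, the KDM3A mean was -0.50, against -0.35 with all of them. With the brightest probe set standing for every gene, the offset of the median gene is 0.20 in place of 0.28. On that scale 2492095 lies at -0.66, past 1.5-fold, where 6.86% of 2742 genes were that much lower.

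P4HA2 acts on collagen chains in the endoplasmic reticulum. Its mean log2 level came to 9.59 in the knockdown and 9.45 in the control, so as deposited it was 0.14 higher, at 110% of control, and relative to the median gene it was 0.14 lower. As deposited 4 of its 15 probe sets were lower and 11 higher. The lowest, 2875207, read 776 in the knockdown and 943 in the control, and the highest, 2875233, read 495 in the knockdown and 343 in the control. No P4HA2 probe set was 1.5-fold from the median gene in either direction. Its brightest, 2875234, had a log2 intensity of 10.49 in the knockdown and 10.58 in the control.

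The brightest probe sets spread less between the arrays than the others. The 5th percentile of the difference relative to the median gene was -0.68 around log2 intensity 7.25, -0.71 around 10.25 and -0.27 around 13.25. Each member probe set was therefore also placed among all single-gene probe sets of its own brightness, in bins of 0.5 (log2). This step was chosen after the values were seen. Below the 5th percentile of its bin lay 8 of 11 PGK1 probe sets, 8 of 11 SLC2A1 probe sets, 5 of 27 KDM3A probe sets and 0 of 15 P4HA2 probe sets, where 5.03% of all single-gene probe sets do so by construction. The SLC2A1 probe sets not below it were 2409116, 2409120 and 2409124, which are among its 4 smallest differences. Removal of the trend of the difference on intensity left the means at -0.86 for PGK1, -0.45 for SLC2A1, -0.36 for KDM3A and -0.13 for P4HA2.

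**Figure D3:**
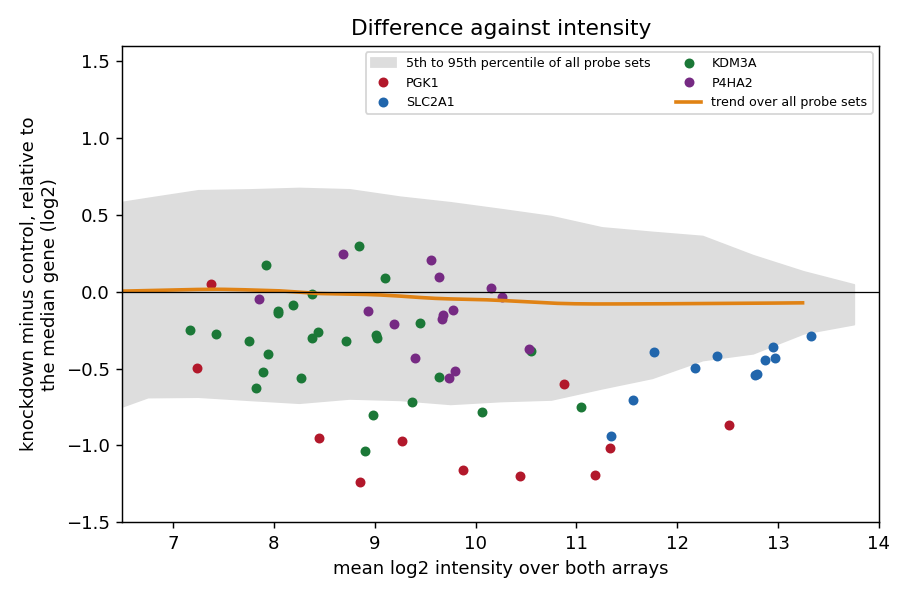
Difference relative to the median gene (log2) against mean log2 intensity over both arrays for the 64 member probe sets. The grey band spans the 5th to the 95th percentile of all single-gene probe sets in intensity bins of 0.5, and the orange line is the trend over all probe sets. The band narrows at high intensity, and 8 of 11 PGK1 and 8 of 11 SLC2A1 points lie below the 5th percentile of their bin.

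The other genes of these pathways were described with 7 lists, of which 36 genes, members included, had at least 4 probe sets. Their median was -0.06 relative to the median gene, beside 0.0020 over all 2742 genes, and without the 4 members it was -0.01 over 32 genes. Of the 36, PGK1 was at least 1.5-fold lower, and RORA and KDM6A were at least 1.5-fold higher, where 2.30% of all genes were that much higher. These shares, 2.78% lower and 5.56% higher, rest on 1 and 2 genes. As deposited the split was 1 lower and 5 higher, with EPAS1, KDM5C and SLC2A2 added to the higher genes. Over all 2742 genes the split was 3.57% lower and 2.30% higher relative to the median gene, and 0.912% lower and 13.1% higher as deposited.

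Along glycolysis 4 of 26 listed enzymes could be followed, and all 4 lay below the median gene, with a median of -0.28 (0.0046 as deposited). After PGK1, phosphofructokinase PFKP, of the committed step, lay at -0.31 ± 0.30 over 15 probe sets (SD over probe sets, relative to the median gene, here and below). Glucose-6-phosphate isomerase, GPI, lay at -0.25 ± 0.16 over 14, and the aldolase ALDOA at -0.18 ± 0.16 over 9. As deposited GPI and ALDOA were 0.04 and 0.10 higher on the knockdown array. PGK1 was thus the lowest of these enzymes, and the others were within 1.5-fold of the median gene. Of the 3 genes of flux control and pyruvate entry, the pyruvate dehydrogenase subunit PDHA1 lay at -0.11 ± 0.26, the glucokinase regulator GCKR at 0.10 ± 0.27 and the dehydrogenase component PDHX at 0.12 ± 0.25, with a median of 0.10.

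Among 4 of 20 listed hexose and lactate transporters, the median was -0.04, with SLC2A1 at one end and SLC2A2 at the other. SLC2A2 encodes GLUT2, the transporter typical of adult hepatocytes. It had a mean log2 intensity of 9.87 in the knockdown and 9.23 in the control, and lay at 0.36 ± 0.22 with all of 11 probe sets above the median gene, as 6.54% of genes with at least 8 probe sets had. SLC2A1 and SLC2A2 therefore lay on opposite sides of the median gene, at every probe set of each. The lactate transporter SLC16A1 lay at -0.17 ± 0.31 over 8 probe sets, but 0.12 higher as deposited, and SLC2A8, an intracellular hexose transporter, at 0.10 ± 0.28 over 12. Of 52 solute carrier genes with at least 4 probe sets, SLC2A1 was the second lowest, beside a median of -0.03 for that family.

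Of 20 listed HIF subunits and oxygen-sensing regulators, 7 had at least 4 probe sets. Of these 7, 5 lay below the median gene and 2 above, with a median of -0.14 (0.15 as deposited). ARNT, the partner of every HIF alpha subunit, lay at -0.32 ± 0.22 with 21 of 23 probe sets on the low side of the median gene, and its deposited means were 8.57 in the knockdown and 8.61 in the control. EPAS1, which encodes HIF-2 alpha, had a mean log2 intensity of 11.04 in the knockdown and 10.32 in the control, and lay at 0.44 ± 0.18 with all of 20 probe sets above the median gene. HIF3A lay at -0.40 ± 0.63 over 4 probe sets that disagreed widely. The sensor EGLN3 lay at -0.17 ± 0.17 and the coactivator CREBBP at -0.14 ± 0.25, and both were higher as deposited. The main HIF hydroxylase EGLN1, at 0.02 ± 0.19, and the ubiquitin ligase subunit ELOC, at -0.01 ± 0.29, were close to the median gene. HIF1A and VHL were not analysed here.

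Of 46 listed hypoxia-induced genes 12 had at least 4 probe sets. Their median of -0.01 was close to that of all genes, with 7 below and 5 above. The list does not hold PGK1 and SLC2A1, which stand in the lists of enzymes and transporters. With them added, a step chosen after the values were seen, the median over 14 genes was -0.08, with 9 below and 5 above. Within the list of 12, KDM3A was the lowest and RORA the highest. RORA, a nuclear receptor of circadian and lipid metabolism, had a mean log2 intensity of 8.48 in the knockdown and 7.10 in the control, and lay at 1.10 ± 0.27 with all of 10 probe sets above the median gene. The next lowest after KDM3A was the lysyl hydroxylase PLOD1, at -0.22 ± 0.20 over 18 probe sets and 0.06 higher as deposited. INSIG2, a brake on sterol synthesis, was next to RORA at 0.27 ± 0.42 over 8. The other genes of the list were closer to the median gene: EGLN3 lay at -0.17, MXI1 at -0.15 and P4HA2 at -0.14. The transferrin receptor TFRC and P4HA1 lay at -0.01, EGLN1 at 0.02, the glycogen branching enzyme GBE1 at 0.07 and KDM4C at 0.10. As deposited, KDM3A was the only gene of the 12 below 0.

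**Figure D4:**
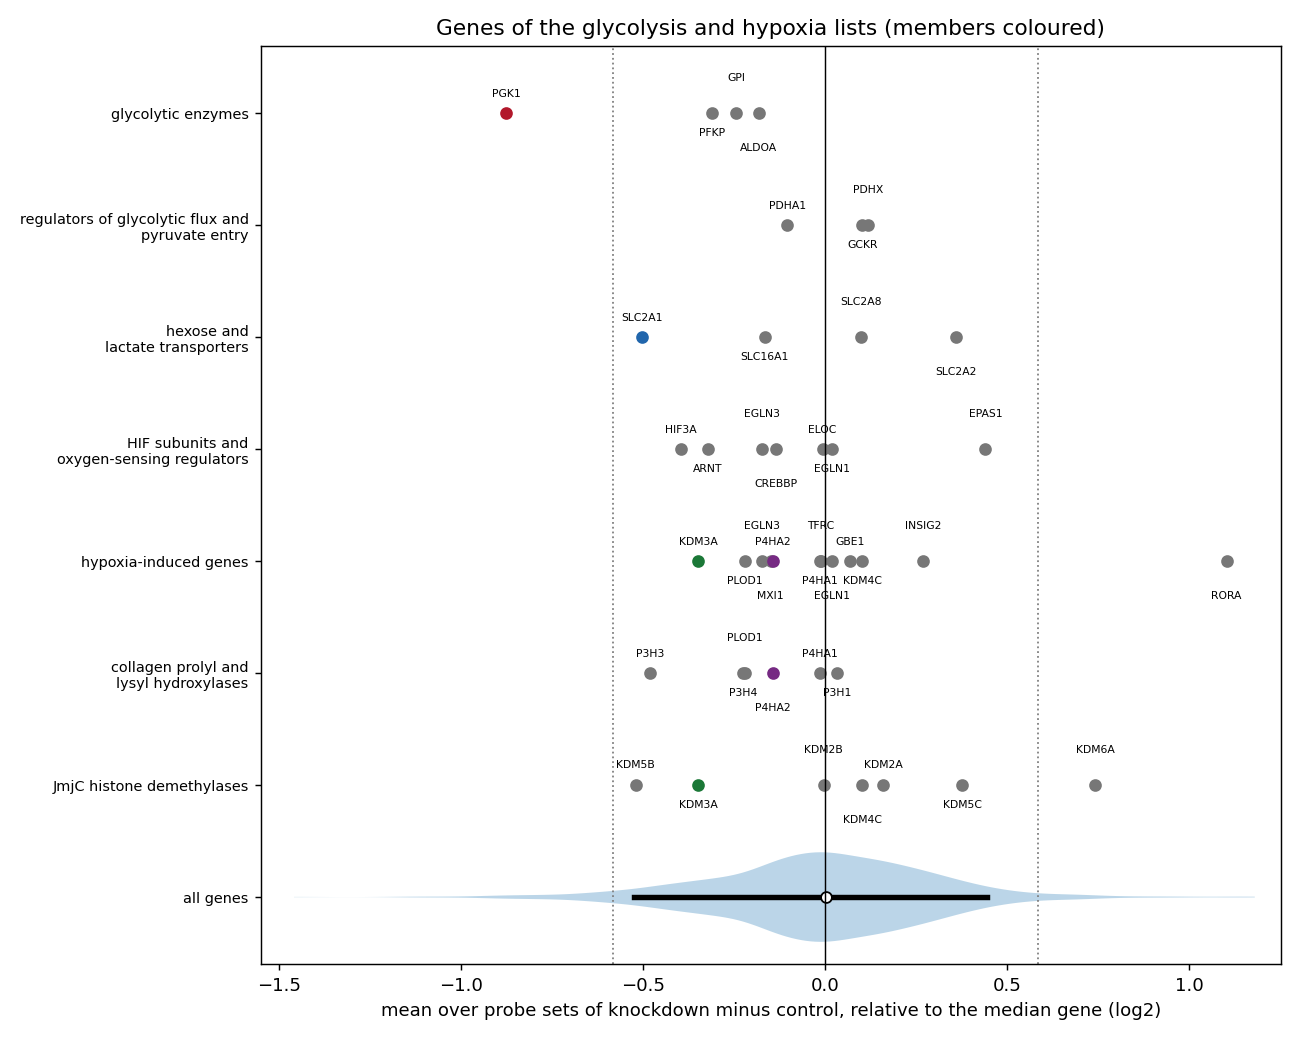
Mean over probe sets of knockdown minus control relative to the median gene (log2) for each gene of 7 lists, with PGK1, SLC2A1, KDM3A and P4HA2 coloured. The bottom row is the distribution over 2742 genes, with the bar from the 5th to the 95th percentile, and dotted lines mark 1.5-fold. PGK1 lies left of the lower dotted line and KDM6A and RORA right of the upper one, and some genes stand in more than 1 list.

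Among the collagen-modifying enzymes, 6 of 12 had at least 4 probe sets, with a median of -0.18 (0.10 as deposited). P4HA1, another catalytic subunit of the enzyme, had a mean log2 intensity of 9.58 in the knockdown and 9.32 in the control. It lay at -0.01 ± 0.28, so P4HA1 and P4HA2 differed by less than the SD of either. The prolyl 3-hydroxylase P3H3 was lowest at -0.48 ± 0.34, under the median gene at each of 6 probe sets, followed by P3H4 at -0.23 ± 0.38. P3H1 lay at 0.03 ± 0.27. COL1A1, a collagen substrate of these enzymes and a fibroblast marker, had a mean log2 intensity of 7.89 in the knockdown and 8.51 in the control and lay at -0.90 ± 0.33 over 14 probe sets. Of 7 fibroblast markers PDGFRB was the other with at least 4 probe sets, at 8.17 in the knockdown and 7.66 in the control. The level summed over both markers came to 524 in the knockdown and 566 in the control in intensity units. Each marker lay below the median gene level of 8.82 on each array. The part of these markers in the P4HA2 result was not tested.

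Among 7 of 22 listed JmjC histone demethylases, the family of KDM3A, 3 lay below the median gene and 4 above, with a median of 0.10. KDM5B, which acts on lysine 4 of histone H3, was the lowest at -0.52 ± 0.23 with all of 31 probe sets below the median gene, and its means were 9.39 in the knockdown and 9.63 in the control. KDM6A, which acts on lysine 27, had means of 8.36 in the knockdown and 7.34 in the control and lay at 0.74 ± 0.31 with all of 33 above. KDM5C lay at 0.38 ± 0.22, KDM2A at 0.16 ± 0.25 and KDM2B at -0.01 ± 0.34. KDM3A thus stood second lowest in its family, which as a group had no common direction.

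The genes with a mean nearest to each member, among genes with at least 8 probe sets, were FASN and IL1R1 for PGK1 (-0.87 each), B4GALNT4 (-0.50) and SLC23A1 (-0.51) for SLC2A1, BCL9 and EPG5 for KDM3A (-0.35 each) and TOP2B and TBC1D1 for P4HA2 (-0.14 each). The widest gap was 0.01. Likeness over 2 arrays is a single difference, so these are near values and no more.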

How the data were processed

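RNA from HepG2 cells was measured on 1 exon array of TUC338 LNA cells and 1 of control LNA cells. Trizol RNA was amplified and biotin-labelled as cDNA, per the labels' protocols. The authors deposited 1 value per probe set and array. Scale, normalization, summary method and build: not given in the sources used here. Deposited values were read as natural log intensities because their exponentials under 2000 showed an excess at 1 residue of a grid of 0.5, although most values lay elsewhere: the fullest bin of 0.001 held 1154 of 41367 knockdown values (mean per bin 82.7) and 1167 of 42089 control values (84.2), while read as log2 the fullest bins held 117 and 115 (mean 90.4). The log base is thus inferred. Values were divided by the natural log of 2.

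Of 45200 probe sets, 42575 had 1 symbol, 1055 several and 1570 none. Older symbols were updated through RefSeq of GRCh38.p14. A gene's value is the mean over its probe sets of knockdown minus control, relative to the median gene. Genes with at least 4 probe sets entered the counts, and a call is a difference of at least 1.5-fold. Named were the 4 members, list genes past 1.5-fold with the 2 highest and 2 lowest of each list, and the 2 nearest genes of each member. Other genes named from the lists (EGLN3, CREBBP, EGLN1, ELOC, MXI1, TFRC, GBE1, KDM4C, KDM2A, KDM2B), SLC2A1's family rank, PCBP2 and COL1A1 were added as context. The members and lists were chosen with earlier results of these data known. The number of arrays limits the precision, and no p-value was computed. Alternatives changed scale, centring, normalization, gene summary and probe sets. The gene summary was run on simulated data with known differences and independent noise at each probe set. That simulation held no variation between cultures, so it does not address it. Python 3.11.15, numpy 2.4.6, pandas 2.3.3 and statsmodels 0.14.6 were used.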

Additional observations from a re-analysis of the deposited data

How the results depend on the processing

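PGK1 kept its direction and stayed past 1.5-fold under all 12 alternatives, between -1.01 (probe sets at or above the median intensity) and -0.59 (as deposited), with -0.61 when the values were read as log2. SLC2A1 kept its direction under 12, between -0.53 and -0.20, and moved by more than its SD over probe sets as deposited (-0.22) and at the brightest probe set (-0.20). KDM3A ranged from -0.66 (brightest probe set) to -0.07 (as deposited), always below 0. P4HA2 turned to 0.14 as deposited and lay between -0.29 and -0.10 otherwise. With the brightest probe set, PGK1 and KDM3A were at least 1.5-fold lower, and no other list gene was. In that setting 6.86% of all 2742 genes were that much lower, against 3.57% in the reported setting. List genes at least 1.5-fold higher numbered 2 in the reported setting, 1 with the values read as log2, 5 as deposited and 1 with probe sets at or above the median intensity. The shares of all genes that much higher were 2.30%, 0.584%, 13.1% and 3.07% in the same order. In the last of these settings RORA had no value, because none of its probe sets reached the median intensity. Of 36 list genes 20 kept their side of 0 under every alternative, of the 9 run across genes, that gave them a value, and 14 of the other 16 turned as deposited. With each member probe set left out in turn, the means ranged from -0.97 to -0.84 for PGK1, -0.53 to -0.46 for SLC2A1, -0.37 to -0.32 for KDM3A and -0.17 to -0.11 for P4HA2. No paired analysis was possible because each group holds 1 array. Differences between cultures cannot be told apart from the effect of the LNA.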

Other observations

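Several genes described above had exons that lay on the same side of the median gene throughout. RORA probe sets lay at 0.66 or more relative to the median gene (log2), so each of its 10 was past 1.5-fold. All of them were dimmer than the median intensity over all probe sets. KDM6A probe sets ranged from 0.16 to 1.41 over 33 and EPAS1 probe sets from 0.12 to 0.72 over 20. SLC2A2 probe sets ranged from 0.14 to 0.69. On the low side every probe set of SLC2A1, KDM5B (-0.95 to -0.11 over 31), COL1A1 (-1.33 to -0.23 over 14) and P3H3 (-1.05 to -0.05 over 6) lay below the median gene. Of 2141 genes with at least 8 probe sets, 6.54% had all of them above the median gene and 6.68% all below. P3H3, with 6 probe sets, is not among the genes these shares cover.

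The relation between the difference and the mean log2 intensity differed among the members. Across probe sets, which share the same 2 arrays and are not independent, Pearson's r was 0.74 for SLC2A1 (n = 11), -0.49 for PGK1 (n = 11), -0.35 for KDM3A (n = 27) and -0.28 for P4HA2 (n = 15), beside -0.07 over all 42575 single-gene probe sets. Spearman's rank correlation was 0.65 for SLC2A1, -0.31 for PGK1, -0.30 for KDM3A and -0.26 for P4HA2, beside -0.08 over all single-gene probe sets. Dim SLC2A1 probe sets thus lay further below the median gene than bright ones. For PGK1 the dimmest readings lay at -0.50 and 0.05, and the brightest, at -0.87, was not the lowest.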
